A study of Mus musculus with 24 samples.

Results

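The 10 genes described here encode the dopamine receptors and the cAMP signalling proteins of striatal neurons. They are the receptors Drd1, Drd2 and Drd3, the G protein subunits Gnal and Gng7, the adenylyl cyclase Adcy5, the phosphodiesterases Pde10a and Pde1b, the phosphatase inhibitor Ppp1r1b and the G protein regulator Rgs9. They were chosen by name, but with earlier results of these data known. All 10 were found among the 37289 genes of the RNA files and among the 15955 genes that passed the filter on low counts. Each was measured in all 12 RNA libraries.

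The libraries came from micropunched striatum of 12 female C57BL/6 mice, about 30 mg of tissue each, and the labels used here give no age at death. The 4 groups, of 3 mice each, were wild-type and Cntnap2 heterozygous (het) mice whose mothers were not stressed (controls) and wild-type and het mice whose mothers had variable stress for 7 days starting at embryonic day 12.5 (stressed). Cntnap2 encodes Caspr2, a neuronal adhesion protein, and all pups of every group were ear-tagged at postnatal day 12 and weaned at day 18. A replicate is 1 mouse. The labels do not say whether mice of a group were littermates, so the tests set differences against the spread of individual mice only.

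As background, dopamine acts on 2 main classes of striatal spiny projection neuron. D1 receptors, on direct-pathway neurons, act through the Golf alpha subunit (Gnal) and Gng7 to stimulate adenylyl cyclase 5, while D2 receptors, on indirect-pathway neurons, act through Gi proteins to inhibit it. The cAMP formed activates protein kinase A, whose targets include DARPP-32 (Ppp1r1b), a protein phosphatase 1 inhibitor when phosphorylated, and phosphodiesterases break cAMP down. Most of these genes are used as markers of spiny neurons.

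Promoter sequences are shown for the receptor genes because Drd1 and Drd2 were abundant in every library and Drd3 was close to the lower end of the genes tested. The sequences are from RefSeq on build GRCm38.p6, whereas the RNA files use mm9, so they give sequence context only. The RefSeq table held 13 windows for 8 of the 10 genes, and the 250 bases before each start were read. Capitals mark the GC box, GGGCGG, searched on both strands. Drd1 has 2 windows on the minus strand, chr13:54055659-54055908 with no match and chr13:54054781-54055030 with 1 match; Drd2 has chr9:49340153-49340402 on the plus strand with 2 matches, and Drd3 has chr16:43761971-43762220 on the plus strand with no match.
Drd1 upstream window: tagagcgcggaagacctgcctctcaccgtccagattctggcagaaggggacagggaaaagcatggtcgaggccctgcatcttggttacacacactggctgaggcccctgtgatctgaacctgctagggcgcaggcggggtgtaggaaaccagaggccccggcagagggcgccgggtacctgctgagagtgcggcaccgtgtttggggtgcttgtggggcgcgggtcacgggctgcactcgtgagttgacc
Drd1 downstream window: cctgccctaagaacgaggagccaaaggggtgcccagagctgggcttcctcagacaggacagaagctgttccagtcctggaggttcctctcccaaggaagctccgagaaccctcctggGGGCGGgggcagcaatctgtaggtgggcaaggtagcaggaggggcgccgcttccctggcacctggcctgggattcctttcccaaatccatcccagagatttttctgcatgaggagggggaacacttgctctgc
Drd2: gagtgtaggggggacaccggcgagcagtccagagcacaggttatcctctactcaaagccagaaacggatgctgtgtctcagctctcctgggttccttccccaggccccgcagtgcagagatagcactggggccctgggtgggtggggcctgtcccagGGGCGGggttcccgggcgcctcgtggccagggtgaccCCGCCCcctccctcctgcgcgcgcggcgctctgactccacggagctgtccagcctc
Drd3: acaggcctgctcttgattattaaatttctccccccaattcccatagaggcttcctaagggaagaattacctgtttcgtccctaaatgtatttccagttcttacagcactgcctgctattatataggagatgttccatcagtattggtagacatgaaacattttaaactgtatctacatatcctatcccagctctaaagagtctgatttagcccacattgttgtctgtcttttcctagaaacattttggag
G and C made up 64.0% and 60.8% of the bases in the Drd1 windows, 68.8% in the Drd2 window and 39.2% in the Drd3 window, against a median of 52.4% over all windows. At least 1 window with a GC box was found for 7 of the 8 genes, all but Drd3. The share by gene was not counted over all genes, and some of the 8 have more than 1 window. Counted by window, the GC box was in 7 of 13, against 32.7% of the 32851 windows of all genes. The full cAMP response element, TGACGTCA, was in none of the 13 windows and in 1.5% of all windows. Its shorter core TGACG, which the full element contains, was in 1 window, of Gng7, and in 17.8% of all windows. TATAAA was in 1 window, of Rgs9, and in 12.4% of all. A match describes letters in a window and does not show that a factor binds there.

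The RNA libraries ranged from 13587154 to 24039706 expected counts, and all 6 het libraries (21410135 or more) were deeper than all 6 wild-type ones (18538304 or fewer). Cntnap2 RNA was at 36.0 to 59.5 TPM (a transcript abundance scaled for length and library size) in the het libraries and 39.7 to 68.3 TPM in the wild-type ones, and the genotypes overlapped both in controls and in stressed mice. The libraries also differed in how strongly abundance depended on transcript length. This was measured as a length slope, the slope over all genes tested of a library's centred log2 CPM (counts scaled for library size) on log2 effective length. The slope was lowest in het control replicate 1 (-0.34) and wild-type control replicate 1 (-0.27) and highest in replicate 3 of the wild-type stressed (0.27) and wild-type control (0.25) groups. The other 8 libraries lay between -0.08 and 0.13. The library of het control replicate 1 carries another animal number in its data than in its label. Wild-type stressed replicate 2, labelled female, had Xist at 1.32 TPM, against 23.1 to 109 TPM in the other 11. The tissue label was checked on 10 spiny neuron markers that are not among the 10 genes: their summed level was 3166 to 6387 TPM in every library. Among markers of other sources, Ttr of choroid plexus ranged from 0.90 to 826 TPM and Slc17a7 of cortical excitatory neurons from 9.47 to 135 TPM.

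The 10 genes covered more than 3 orders of magnitude in TPM, which allows levels to be compared between genes because it is per length. Ppp1r1b was the highest at 2061 ± 447 TPM (SD, n = 12) and ranked 44th of the 15955 genes by mean level. Pde1b (641 ± 164 TPM) and Gng7 (585 ± 169 TPM) followed, then Rgs9 (230.4 ± 61.0 TPM), Pde10a (200.3 ± 80.5 TPM), Adcy5 (195 ± 90.2 TPM) and Gnal (156 ± 66.0 TPM). Drd2 was at 125 ± 46.5 TPM and Drd1 at 108 ± 23.5 TPM, while Drd3 was at 0.855 ± 0.428 TPM and ranked 14240th. Ppp1r1b was above Pde1b, Gng7 above Rgs9, Adcy5 above Gnal, Gnal above Drd2 and Drd1 above Drd3 in 12 of 12 libraries. For the other neighbours in this order the mean log2 ratio was below its SD over single libraries. It was 0.16 (SD 0.21, in this order in 10 of 12 libraries) for Pde1b to Gng7 and 0.27 (SD 0.31, 10 of 12) for Rgs9 to Pde10a. It was 0.08 (SD 0.17, 9 of 12) for Pde10a to Adcy5 and 0.14 (SD 0.34, 9 of 12) for Drd2 to Drd1.

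**Figure D1:**
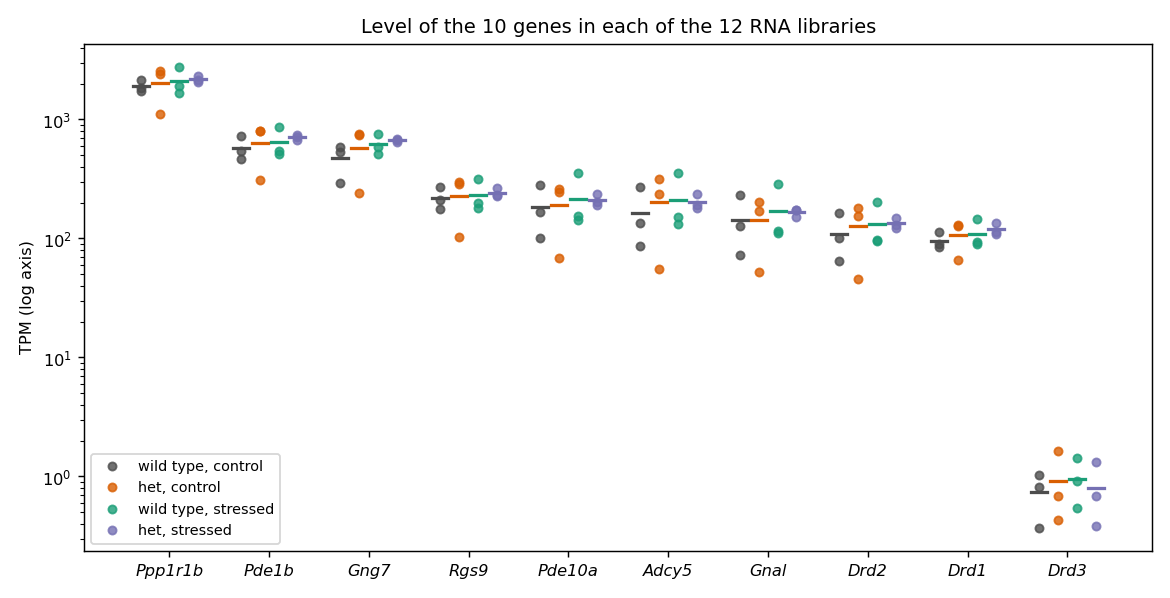
TPM of the 10 genes (log axis) in each of the 12 libraries, with points for libraries coloured by group and short lines for group means. Ppp1r1b lies at 1109 to 2759 TPM and Drd3 at 0.37 to 1.65 TPM, and the 4 groups overlap for nearly every gene.

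Among the receptors, Drd1, the Gs- and Golf-coupled receptor of direct-pathway neurons, was the most even gene of the set on the TPM scale together with Ppp1r1b, with a coefficient of variation of 21.7% for each. Drd1 stood at 85.4, 90.6 and 112.3 TPM in wild-type controls and at 66.3, 129.1 and 127.4 TPM in het controls, replicates 1 to 3 in order. It was at 92.7, 90.5 and 145.0 TPM in wild-type stressed mice and 112.8, 110.1 and 135.1 TPM in het stressed mice. The lowest library was het control replicate 1 and the highest wild-type stressed replicate 3, and every group overlapped every other. Drd2, the Gi-coupled receptor of indirect-pathway neurons, varied more, 4.43-fold between its lowest and highest library. Drd2 stood at 64.5, 101.3 and 163.2 TPM in wild-type controls and at 45.4, 154.7 and 179.3 TPM in het controls, replicates 1 to 3 in order. It was at 95.9, 97.6 and 201.0 TPM in wild-type stressed mice and 147.9, 123.2 and 130.5 TPM in het stressed mice. Both control groups held a library at or under 64.5 TPM and another at or above 163 TPM, so the spread within them was larger than any difference between group means. Drd3, the D3 receptor, known mainly from the ventral striatum, had only 7 to 36 expected counts per library. Drd3 stood at 0.37, 0.81 and 1.03 TPM in wild-type controls and at 0.43, 0.69 and 1.65 TPM in het controls, replicates 1 to 3 in order. It was at 0.54, 0.91 and 1.43 TPM in wild-type stressed mice and 0.69, 1.33 and 0.38 TPM in het stressed mice. Counts this low leave its order among the libraries uncertain, and no group stood apart.

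The G protein subunits overlapped between all groups on the TPM scale with 1 exception in Gng7. Gnal stood at 72.3, 126.5 and 233.0 TPM in wild-type controls and at 52.1, 171.0 and 202.0 TPM in het controls, replicates 1 to 3 in order. It was at 115.3, 111.6 and 285.2 TPM in wild-type stressed mice and 174.2, 150.5 and 174.5 TPM in het stressed mice. Gnal, the alpha subunit that couples D1 and adenosine receptors to adenylyl cyclase, ranged 5.48-fold over the libraries. Gng7 stood at 295.3, 538.1 and 587.1 TPM in wild-type controls and at 240.4, 750.4 and 741.9 TPM in het controls, replicates 1 to 3 in order. It was at 509.1, 589.8 and 757.7 TPM in wild-type stressed mice and 641.7, 677.8 and 685.5 TPM in het stressed mice. Gng7, the gamma subunit that pairs with Golf in striatum, was higher in all 3 het stressed libraries (642 to 686 TPM) than in all 3 wild-type control libraries (295 to 587 TPM). In CPM, het stressed libraries were above wild-type controls without overlap for 3.64% of all genes, and the share in TPM was not counted. Adcy5, the main adenylyl cyclase of striatal neurons, had the largest range of the 10, 6.42-fold. Adcy5 stood at 86.7, 135.5 and 269.8 TPM in wild-type controls and at 55.0, 236.2 and 315.4 TPM in het controls, replicates 1 to 3 in order. It was at 131.2, 152.8 and 353.0 TPM in wild-type stressed mice and 237.0, 179.6 and 191.9 TPM in het stressed mice. Its 2 lowest values were in the control replicates numbered 1, and its 3 highest in replicate 3 of the wild-type stressed, het control and wild-type control groups.

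The phosphodiesterases differed in level and in evenness. Pde10a stood at 101.6, 166.8 and 284.1 TPM in wild-type controls and at 68.3, 245.7 and 261.9 TPM in het controls, replicates 1 to 3 in order. It was at 153.7, 142.2 and 353.0 TPM in wild-type stressed mice and 234.2, 189.3 and 202.3 TPM in het stressed mice. Pde10a, which degrades cAMP and cGMP in spiny neurons, varied 5.17-fold, and its 2 lowest libraries were again the control replicates 1. Pde1b stood at 462.8, 544.3 and 729.5 TPM in wild-type controls and at 312.7, 805.1 and 792.6 TPM in het controls, replicates 1 to 3 in order. It was at 545.5, 517.0 and 859.3 TPM in wild-type stressed mice and 739.8, 670.4 and 714.9 TPM in het stressed mice. Pde1b, a calcium- and calmodulin-dependent phosphodiesterase, varied 2.75-fold, and its het stressed libraries (670 to 740 TPM) overlapped the wild-type controls (463 to 730 TPM) on this scale. Ppp1r1b encodes DARPP-32. Ppp1r1b stood at 1838, 1735 and 2151 TPM in wild-type controls and at 1109, 2423 and 2573 TPM in het controls, replicates 1 to 3 in order. It was at 1912, 1678 and 2759 TPM in wild-type stressed mice and 2330, 2074 and 2153 TPM in het stressed mice. Its het control replicate 1 stood below the other 11 libraries, which lay between 1678 and 2759 TPM. Rgs9 speeds the shut-off of G proteins after receptor activation. Rgs9 stood at 208.9, 175.8 and 269.6 TPM in wild-type controls and at 103.9, 288.7 and 295.6 TPM in het controls, replicates 1 to 3 in order. It was at 199.5, 180.3 and 317.9 TPM in wild-type stressed mice and 265.5, 230.5 and 229.0 TPM in het stressed mice. Its lowest library, at 104 TPM, was also het control replicate 1.

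The 10 genes moved together across libraries more than between groups. In TPM, het control replicate 1 was the lowest library for 9 of the 10 genes, all but Drd3, and wild-type stressed replicate 3 the highest for 9, again all but Drd3. Low TPM in het control replicate 1 was not particular to these genes. It was also the lowest library in summed TPM of the oligodendrocyte (5154), astrocyte (1374), microglia (438.8) and endothelial markers (162.5). It was not the lowest for cortical excitatory, septum and pallidum, choroid plexus or ependymal markers. In CPM scaled by TMM, het control replicate 1 was the lowest for 8 of the 10 genes, all but Drd1 and Drd3. The highest was het control replicate 2 for 5 genes and wild-type stressed replicate 3 for 4. As the median over the 10 genes of log2 CPM minus each gene's mean, het control replicate 1 stood at -0.66 and wild-type control replicate 1 at -0.57. At the other end were het control replicate 2 (0.39), wild-type stressed replicate 3 (0.38) and het control replicate 3 (0.33). The remaining 7 libraries lay between -0.13 and 0.19. In bulk RNA, fewer spiny neurons in a punch and less of these RNAs per neuron cannot be told apart. The length slope moved with these values in part: it was lowest in both low libraries, and highest in wild-type stressed replicate 3, but 0.02 in het control replicate 2. In wild-type control replicate 1 the 3 longest genes were low, with Adcy5 (mean length 7006 nt) at -0.72, Gnal (5156 nt) at -0.69 and Pde10a (7464 nt) at -0.58. So were shorter ones, with Drd3 (1455 nt) at -0.67, Gng7 (3099 nt) at -0.61 and Drd2 (2531 nt) at -0.57. Drd1 (3526 nt) and Pde1b (3011 nt) were at -0.03 and -0.15, and Ppp1r1b (1670 nt) and Rgs9 (2295 nt) at 0.10 and 0.08, so the order did not follow length throughout. In het control replicate 1 all 10 were below their mean, from -1.15 for Adcy5 to -0.17 for Drd1. The part of the length slope in these levels was not tested.

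**Figure D2:**
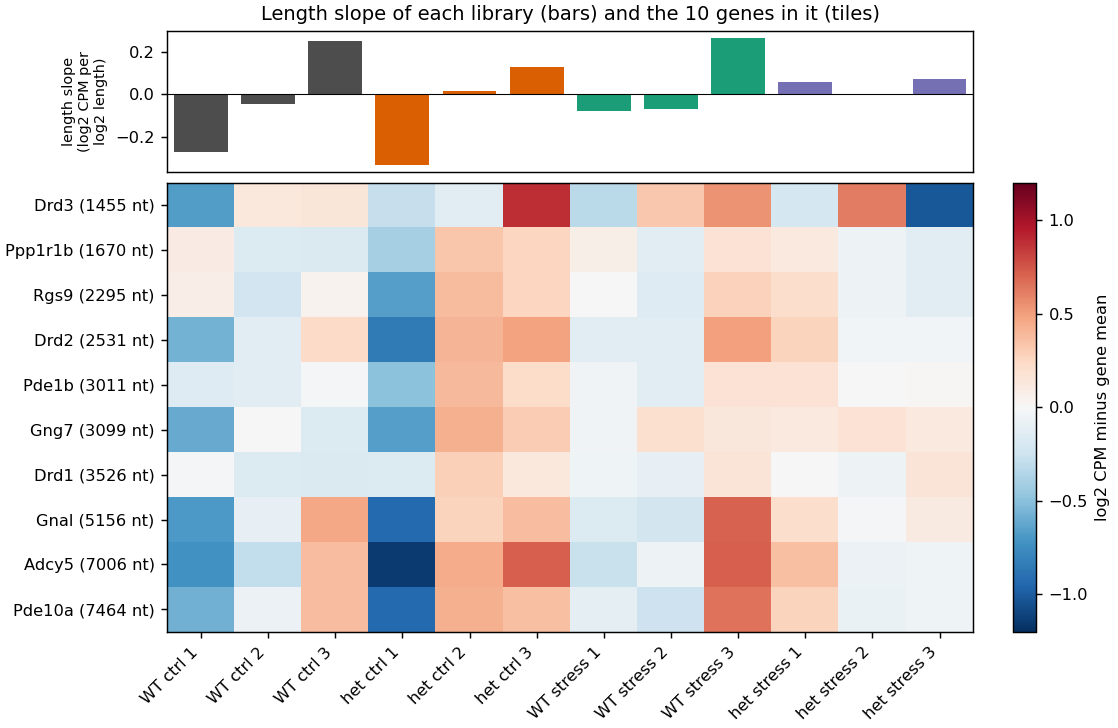
Top, bars give the length slope of each library (log2 CPM per log2 length); bottom, tiles give log2 CPM minus the gene's mean for the 10 genes, ordered by mean transcript length in nucleotides. The columns of the control replicates 1 (WT ctrl 1 and het ctrl 1) are blue for most genes, with slopes of -0.27 and -0.34.

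Over the 12 libraries, Pearson's r of log2 CPM was 0.51 to 0.99 with a median of 0.81 for the 36 pairs without Drd3, and -0.04 to 0.52 for pairs with Drd3. These values describe the same 12 libraries, which share depth, length slope and tissue makeup, and are given without a test. Outside the 10 genes, the profiles most like Drd2 were those of Rasd2 (r = 0.991), a striatal small GTPase known as Rhes, Mgat5b (0.989) and Tbc1d8 (0.988). For Drd1 they were Stk32a (0.929), Zbtb8a (0.900) and Rem2 (0.898). For Ppp1r1b they were Slc39a3 (0.975), Erf (0.967) and Kcnip2 (0.950), and for Drd3, at its low counts, Rfxank (0.916), Zfp36 (0.832) and Fbln2 (0.814).

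In mice without prenatal stress, the comparison of het with wild type asks what the Cntnap2 genotype goes with on its own. All 10 genes had a fold change above 0 in het mice, but none passed the test. The log2 fold changes of edgeR's quasi-likelihood test ran from 0.04 (Gnal) to 0.39 (Drd3) with a median of 0.20, against a median of 0.003 over all genes, of which 50.7% were above 0. None of the 10 was called at an adjusted p of 0.05 and none had an unadjusted p under 0.05; over all genes 0.00627% and 1.47% did. The smallest p-values were for Drd1 (0.22 ± 0.15 SE, 95% interval -0.11 to 0.54), Gng7 (0.33 ± 0.26, -0.23 to 0.90) and Pde1b (0.19 ± 0.20, -0.26 to 0.64), each with an edgeR adjusted p of 0.99999. The interval lay within -1 and 1, a 2-fold change either way, for all but Drd3 (-0.76 to 1.54) and Adcy5 (-0.64 to 1.34). In CPM, het controls held Gng7 at 767, 1630 and 1497 and wild-type controls at 795, 1218 and 1083. For Drd1 these were 235, 322 and 288 CPM against 259, 236 and 234 CPM. Het replicates 2 and 3 were above all wild-type controls for both genes, while het replicate 1 was below all of them for Gng7 and among them for Drd1, so the groups overlapped.

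The median of this comparison turned on single libraries: leaving out het control replicate 1 gave 0.42, leaving out replicate 3 of that group gave 0.02 and leaving out its replicate 2 gave 0.06, with none of the 10 called in any of these fits. It was 0.39 without both control replicates 1. With limma-voom and sample quality weights, which gave het control replicate 1 a weight of 0.125 and wild-type control replicates 1 and 3 weights of 0.275 and 0.254, against 6.765 for wild-type control replicate 2 and 2.871 for het control replicate 2, 6 of the 10 genes were called higher in het mice, while it called 6.16% of all genes, with 2.96% higher in het mice. These were Drd1 (0.40 ± 0.08 SE, limma adjusted p = 0.0222), Pde1b (0.45 ± 0.10, 0.0240), Ppp1r1b (0.45 ± 0.10, 0.0268), Rgs9 (0.53 ± 0.12, 0.0298), Adcy5 (0.74 ± 0.19, 0.0433) and Drd2 (0.53 ± 0.14, 0.0456). DESeq2 and the other fits called none of the 10. Beside these values, the 10 other spiny neuron markers had edgeR fold changes above 0 as well (10 of 10, median 0.25, summed level 3166 to 6154 TPM in het and 4188 to 4847 TPM in wild-type controls). The 10 oligodendrocyte markers were all below 0 (median -0.28, 5154 to 10740 against 8932 to 13740 TPM). The 8 thalamus markers were also all below 0 (median -0.80, 25.1 to 33.5 against 43.5 to 128 TPM, without overlap). So were all 8 ependymal markers (median -0.40) and 7 of 8 cortical excitatory markers (median -0.40). No marker gene was called by edgeR, and calls of the markers by limma-voom were not counted. The part of tissue makeup in the values of the 10 genes was not tested.

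Among prenatally stressed mice, the fold changes of the 10 genes by genotype were of both signs and none passed the test. Fold changes of het over wild type ran from -0.32 (Drd3) to 0.06 (Pde1b) with a median of -0.05 and a median of -0.004 over all genes. Of the 10, 3 were above 0 and 7 below, against 48.8% of all genes above 0. None was called (0.00627% of all genes were) and none had an unadjusted p under 0.05 (0.57% did). The smallest p-values were for Drd3 (-0.32 ± 0.52 SE, 95% interval -1.47 to 0.83), Ppp1r1b (-0.07 ± 0.20, -0.50 to 0.36) and Pde1b (0.06 ± 0.20, -0.39 to 0.51), with an edgeR adjusted p of 0.99992 for each. The het stressed group had the smallest SD of the 4 groups in TPM for 9 of the 10 genes, all but Drd3, with Gng7 at 668 ± 23.4 (SD, n = 3) and Pde1b at 708 ± 35.2 TPM, against 619 ± 127 and 641 ± 190 TPM in wild-type stressed mice. Without wild-type stressed replicate 3 the median was 0.12, and without replicate 2 of that group, the one with low Xist, it was -0.14. The intervals reach a 2-fold difference for Drd3 and for Adcy5 (-1.09 to 0.88). Of the other spiny neuron markers 4 of 10 were above 0 (median -0.04). All 10 oligodendrocyte (median 0.20), all 8 astrocyte (0.14) and all 8 microglia markers (0.06) were above 0. So were 7 of 8 choroid plexus markers (1.94, summed level 13.1 to 578 TPM in het and 6.91 to 24.5 TPM in wild-type mice). All 8 ependymal markers were below 0 (median -0.85). The part of these markers was not tested.

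Prenatal stress in wild-type mice went with fold changes above 0 for all 10 genes, and again none passed the test. The median was 0.20 (0.08 for Rgs9 to 0.36 for Drd3), against -0.006 over all genes and 48.8% of all genes above 0. No gene at all was called by edgeR in this comparison (0%), and none of the 10 had an unadjusted p under 0.05, which 2.49% of all genes had. The smallest p-values were for Gng7 (0.33 ± 0.26 SE, 95% interval -0.23 to 0.89), Drd1 (0.12 ± 0.15, -0.20 to 0.45) and Adcy5 (0.34 ± 0.45, -0.65 to 1.33), each with an edgeR adjusted p of 0.99992. In CPM, Gng7 was at 1177, 1381 and 1331 in stressed and at 795, 1218 and 1083 in control mice, so stressed replicate 1 lay below control replicate 2. The median was 0.00 without wild-type stressed replicate 3, and Adcy5 was then at -0.01. It was 0.40 without wild-type control replicate 3 and 0.30 without stressed replicate 2. Of the other spiny neuron markers, 9 of 10 were above 0 (median 0.13). All 8 choroid plexus markers were below 0 (median -3.21, summed level 6.91 to 24.5 TPM in stressed and 304 to 582 TPM in control mice), as were all 10 oligodendrocyte markers (median -0.53) and all 8 thalamus markers (median -0.69, 25.9 to 33.9 against 43.5 to 128 TPM). Their part in the values of the 10 genes was not tested. This comparison shares its control mice with the comparison of genotype in controls, so the matching sign of both is not independent.

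In het mice prenatal stress went with values close to 0. Of the 10 genes 2 were above 0, Gnal and Gng7, and 8 below, with a median of -0.05 (-0.35 for Drd3 to 0.09 for Gnal), while 50.5% of all genes were above 0. None was called, as in the whole table (0%), and none had an unadjusted p under 0.05 (1.12% of all genes had). The smallest p-values were for Drd3 (-0.35 ± 0.51 SE, 95% interval -1.47 to 0.77), Ppp1r1b (-0.12 ± 0.20, -0.55 to 0.31) and Drd1 (-0.06 ± 0.15, -0.38 to 0.27), with an edgeR adjusted p of 0.99995 for each. The median was -0.32 without het control replicate 1 and -0.32 without both control replicates 1, but leaving out replicate 2 or 3 of the het controls gave 0.11 and 0.15. On log2(TPM + 1) with limma-trend it was 0.29. The sign thus depended on which het controls were used, and also differed in the limma-trend fit, which changes both unit and test. Of the cortical excitatory markers 7 of 8 were above 0 (median 0.80, 124 to 169 against 17.8 to 94.2 TPM, without overlap), as were 7 of 8 astrocyte markers (0.23). All 8 choroid plexus markers (median -1.11), all 8 ependymal markers (-0.67) and 9 of the 10 other spiny neuron markers (-0.12) were below 0. The part of these markers was not tested.

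**Figure D3:**
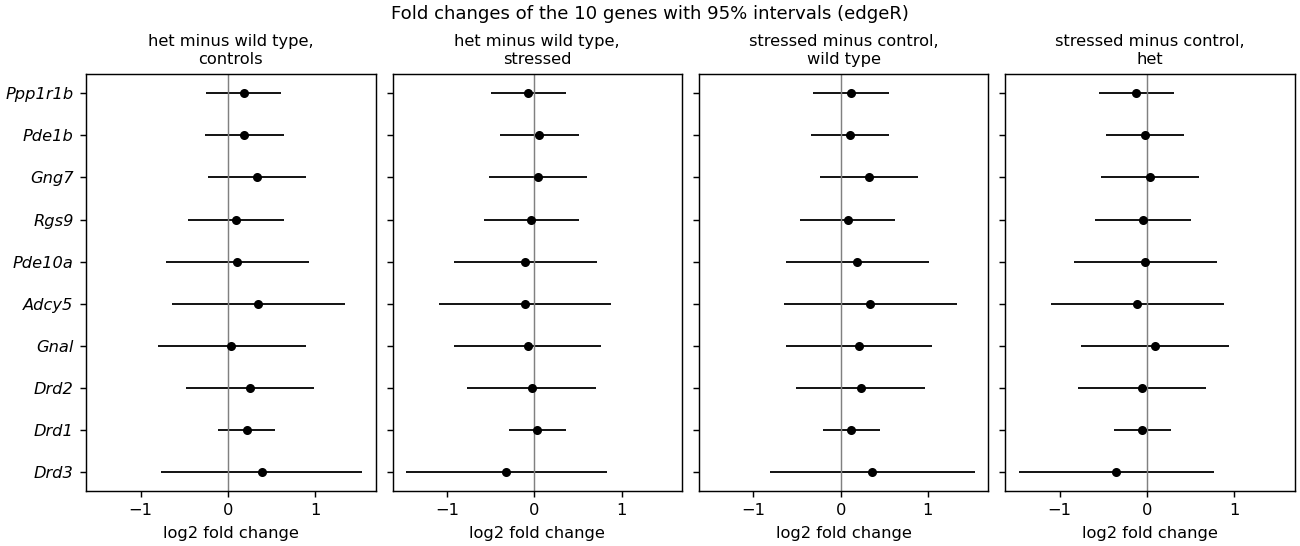
Log2 fold changes (points) and 95% intervals (lines) of the 10 genes from edgeR's quasi-likelihood test in 4 pairwise comparisons. Every interval crosses 0; the points lie right of 0 for all 10 genes for het against wild type in controls and for stress in wild type.

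Het stressed against wild-type control mice, which differ in both factors, gave fold changes above 0 for all 10 genes (median 0.15, 0.04 to 0.37; 49.3% of all genes were above 0). The wild-type control mice are those of the comparisons of genotype in controls and of stress in wild type, so the matching signs are not independent. None of the 10 was called (0.00627% of all genes were) and none had an edgeR unadjusted p under 0.05 (1.28% did). Gng7 was at 1316, 1364 and 1317 CPM in het stressed and at 795, 1218 and 1083 CPM in wild-type control mice. Pde1b was at 1479, 1319 and 1326 CPM against 1180, 1202 and 1289 CPM. For these genes the groups did not overlap, with all het stressed libraries higher, which held for 3.64% of all genes; the other 8 overlapped. The fold changes were 0.37 ± 0.26 (SE, 95% interval -0.20 to 0.93) for Gng7, 0.16 ± 0.15 (-0.16 to 0.48) for Drd1 and 0.17 ± 0.20 (-0.28 to 0.62) for Pde1b, each with an edgeR adjusted p of 0.99999. In TPM only Gng7 of the 10 was without overlap, as given above, and the share of all genes was not counted on that scale. The median was 0.06 without wild-type control replicate 1 and when the length slope entered the fit, 0.26 without wild-type control replicate 3 and 0.31 with limma-trend on log2(TPM + 1). Of the other spiny neuron markers 8 of 10 were above 0 (median 0.10), and their summed level, 5025 to 5596 TPM in het stressed and 4188 to 4847 TPM in wild-type control mice, did not overlap either. All 10 oligodendrocyte markers (median -0.32), all 8 thalamus markers (-0.79), all 8 choroid plexus markers (-1.11) and all 8 ependymal markers (-1.14) were below 0. Their part in the values of Gng7, Pde1b and the other 8 genes was not tested.

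The interaction, the stress difference in het minus that in wild-type mice, was below 0 for all 10 genes (median -0.23, -0.71 to -0.12), against 51.8% of all genes below 0 and a median of -0.009. It is built from the same 4 groups, so its sign is not independent of the comparisons above. None of the 10 was called, nor was any other gene tested (0%), and none had an edgeR unadjusted p under 0.05 (1.33% of all genes had). The smallest p-values were for Drd3 (-0.71 ± 0.74 SE, 95% interval -2.34 to 0.92), Drd1 (-0.18 ± 0.21, -0.64 to 0.28) and Ppp1r1b (-0.24 ± 0.28, -0.85 to 0.37), with an edgeR adjusted p of 0.99997 for each. The median was -0.49 without het control replicate 1, -0.10 without replicate 2 and -0.09 without replicate 3 of that group, -0.40 without wild-type control replicate 3 and -0.08 without wild-type stressed replicate 3. With limma-trend on log2(TPM + 1), which changes both the unit and the test, it was 0.06. Of the markers, all 10 other spiny neuron ones were below 0 (median -0.29), and all 10 oligodendrocyte (0.53) and all 8 thalamus ones (0.91) above 0, and their part was not tested. Averaged over prenatal condition, het minus wild type had a median of 0.08, with 9 genes above 0 and Gnal at -0.02 (50.3% of all genes were above 0). This median was -0.01 without het control replicate 3, 0.17 without replicate 1 of that group and 0.29 with limma-voom. Drd1 was at 0.12 ± 0.10 (95% interval -0.10 to 0.35), Gng7 at 0.19 ± 0.18 (-0.21 to 0.58) and Pde1b at 0.12 ± 0.14 (-0.19 to 0.44), each with an edgeR adjusted p of 0.9999. None of the 10 was called and none had an unadjusted p under 0.05, against 0.00627% and 0.708% of all genes. Averaged over genotype, stressed minus control had a median of 0.06, with all 10 values at or above 0 (49.9% of all genes were above 0). The sign of this median was not kept: it was -0.04 when the length slope entered the fit, -0.07 without het control replicate 1 and -0.04 without wild-type stressed replicate 3. It was -0.10 without both control replicates 1 and -0.09 with limma-voom. Gng7 was at 0.18 ± 0.18 (95% interval -0.22 to 0.58), Gnal at 0.15 ± 0.27 (-0.44 to 0.75) and Drd2 at 0.09 ± 0.24 (-0.43 to 0.61), with an edgeR adjusted p of 0.975 for each. None was called (0% of all genes) and none had an unadjusted p under 0.05 (2.34% did). Gnal and Drd2 turned to -0.01 and -0.04 when the length slope entered the fit, and to -0.12 and -0.16 without both control replicates 1, when Gng7 was at -0.03. In both averaged comparisons the 95% interval of every one of the 10 genes lay within -1 and 1, so a 2-fold difference lay outside it.

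The ratio of Drd1 to Drd2, taken within a library in TPM, sets the direct-pathway receptor against the indirect-pathway one and does not depend on the total share of spiny neurons. It was 1.32, 0.894 and 0.688 in wild-type controls and 1.46, 0.835 and 0.710 in het controls, replicates 1 to 3. In stressed mice it was 0.966, 0.927 and 0.722 (wild type) and 0.763, 0.894 and 1.04 (het). Drd1 was above Drd2 in 3 of the 12 libraries, the 2 control replicates 1 and het stressed replicate 3. The mean log2 ratio was -0.10 ± 0.48 in wild-type controls, -0.07 ± 0.55 in het controls, -0.21 ± 0.23 in wild-type stressed and -0.17 ± 0.22 in het stressed mice (SD, n = 3 each). By genotype it was -0.12 ± 0.38 in 6 het and -0.15 ± 0.34 in 6 wild-type mice, a difference of 0.04 (two-sided exact permutation p = 0.857, adjusted p = 0.857 over 2 tests). By prenatal condition it was -0.19 ± 0.20 in stressed and -0.08 ± 0.46 in control mice, a difference of -0.10 (two-sided exact permutation p = 0.608, adjusted p = 0.857). With 6 against 6 the smallest p possible is 0.00216. The ratio moved with the length slope: the 2 lowest slopes went with the 2 highest ratios, and the 3 highest slopes (0.13 to 0.27) with the 3 lowest ratios (0.688 to 0.722). Mean transcript length was 3526 nt for Drd1 and 2531 nt for Drd2. A negative slope means that over all genes longer transcripts were relatively low in that library. Drd1, the longer, was instead relatively highest at the lowest slopes, the opposite direction. Without both control replicates 1, a choice made after seeing the data, the stress difference was 0.18, of the opposite sign. The part of the slope in the ratio was not tested. The summed markers of the direct pathway, 529 to 766 TPM, ranged less over the libraries than those of the indirect pathway, 1829 to 3622 TPM.

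**Figure D4:**
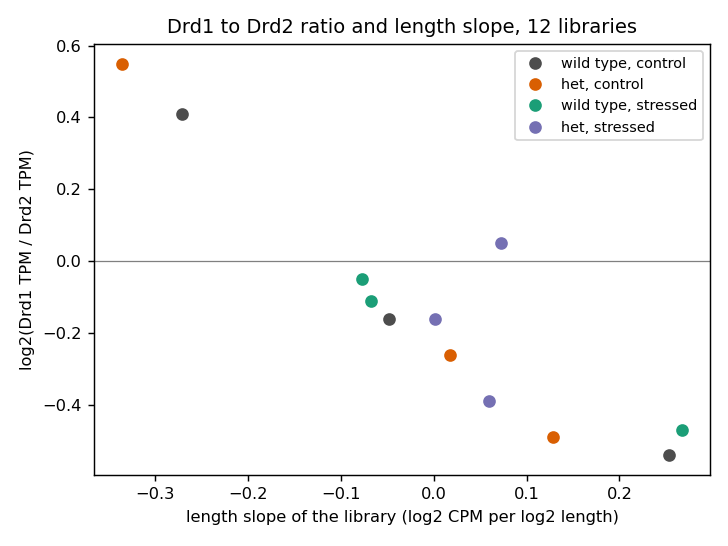
Log2 ratio of Drd1 to Drd2 TPM against the length slope, 1 point per library, coloured by group. The control replicates 1 lie at top left with log2 ratios of 0.41 and 0.55 and slopes of -0.27 and -0.34, and the other 10 libraries lie between -0.54 and 0.05.

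Transcripts were compared by their share of the gene's TPM. Drd1 and Drd3 have 1 listed transcript each, and Adcy5 was carried almost wholly by 1 of 7007 nt (99.8% or more in every library). Gnal was led by a transcript of 5223 nt (88.4 to 94.5%). Drd2, which is known to be spliced into a long and a short receptor form, had 2 listed transcripts that differ by 87 nt, of 2547 nt (ENSMUST00000075764.5) and 2460 nt (ENSMUST00000114494.1). The longer held 77.7, 81.8 and 81.5% in wild-type controls and 80.5, 79.2 and 80.9% in het controls. In stressed mice it held 87.7, 79.8 and 83.3% (wild type) and 82.5, 81.0 and 83.6% (het). It was 2.71 percentage points higher in stressed than in control mice (83.0 ± 2.70 against 80.3 ± 1.57%, SD, n = 6 each; two-sided exact permutation p = 0.0455, adjusted p = 0.224 over 10 tests of 5 genes), which did not pass. Gng7 was led by a transcript of 3362 nt (83.7 to 90.4%), with one of 875 nt second (7.1 to 14.2%). Its leading share was 2.17 points higher by genotype, with het mice higher (exact permutation p = 0.0325, adjusted p = 0.224) and differed by -1.97 points between stressed and control mice (exact permutation p = 0.0671, adjusted p = 0.224). With shares taken from expected counts in place of TPM, these Gng7 differences were 0.99 and -0.21 points (exact permutation, adjusted p = 0.216 and 0.765). Ppp1r1b was split between transcripts of 2001 nt (53.7 to 70.1%) and 1191 nt (24.8 to 43.7%), with differences of 0.86 points by genotype and 1.44 by stress (exact permutation, adjusted p = 0.781 and 0.762).

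In 3 genes the control replicates 1 stood apart from all other libraries. Pde10a had a transcript of 7386 nt at 74.8% in wild-type and 71.1% in het control replicate 1, against 40.4 to 54.4% elsewhere, and one of 7717 nt at 14.5 and 0.4%, against 41.2 to 56.7%. Rgs9, known to have a striatal and a retinal splice form, had its 2434 nt transcript at 54.8 and 59.7%, against 72.7 to 84.2%, and its 1743 nt transcript at 35.6 and 38%, against 1.4 to 11.4%. The files do not say which transcript encodes which form. Pde1b had a 2807 nt transcript at 20.4 and 19.3%, against 0.0 to 1.7%. Both libraries have the lowest length slopes, and the part of the slope in these shares was not tested. The leading share of Pde10a differed by -8.87 points between stressed and control mice (47.4 ± 5.72 against 56.3 ± 13.8%; exact permutation p = 0.206, adjusted p = 0.411), and by -0.50 without both control replicates 1. That of Rgs9 differed by 8.29 points (78.8 ± 3.72 against 70.6 ± 11%; exact permutation p = 0.121, adjusted p = 0.303), and by 1.61 without both control replicates 1. By genotype the differences were 4.11 and -2.34 points (exact permutation, adjusted p = 0.762 for each).

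**Figure D5:**
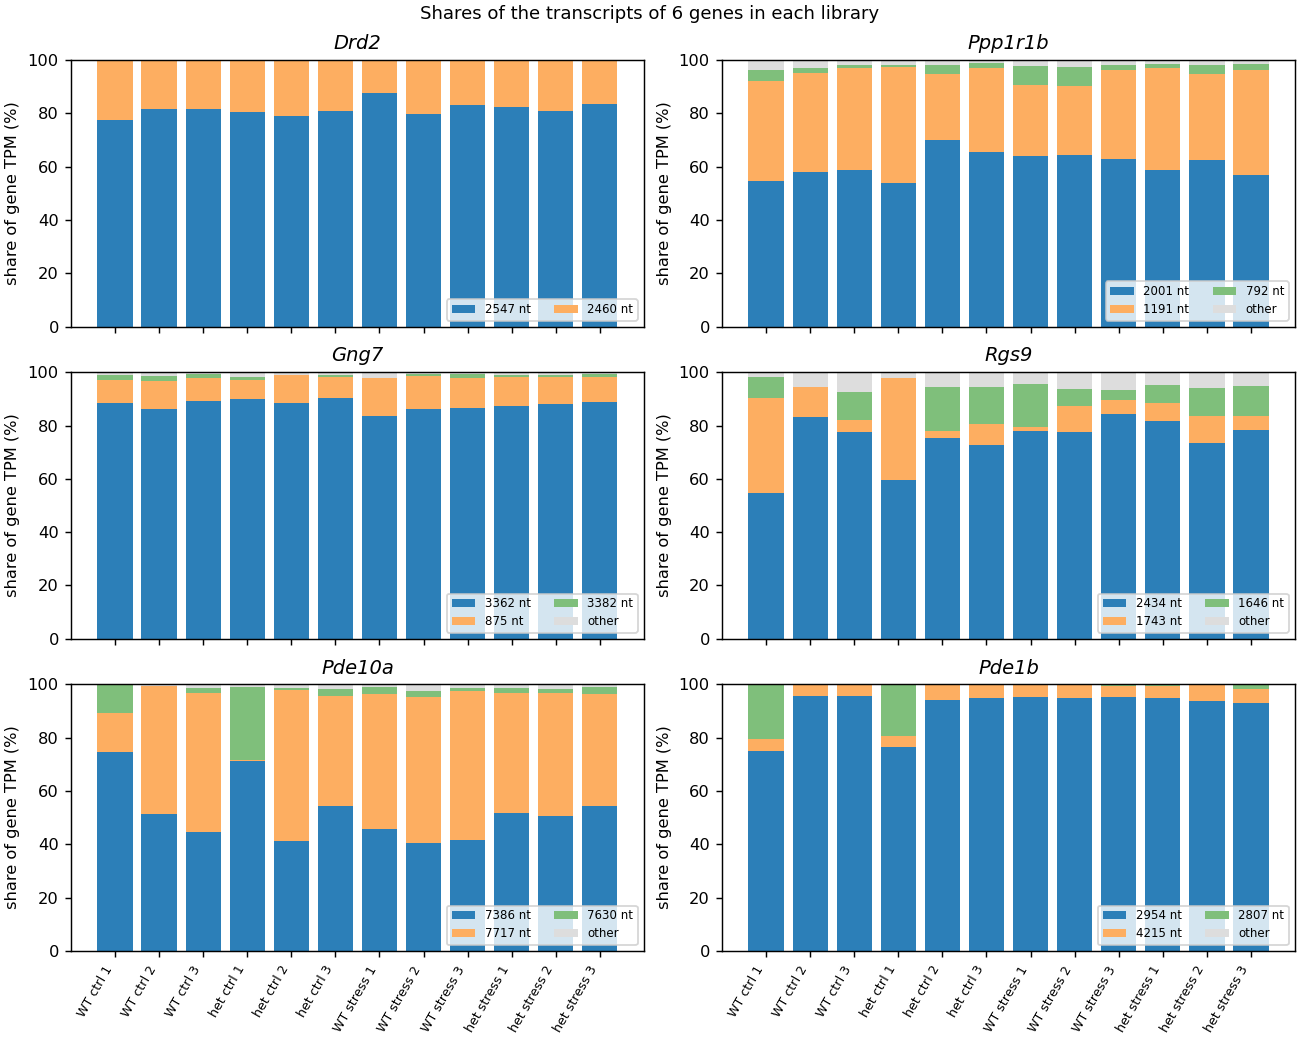
Stacked bars of the share of each gene's TPM (percent) held by its 3 leading transcripts, labelled by length in nucleotides, in each of the 12 libraries. In WT ctrl 1 and het ctrl 1 the 1743 nt transcript of Rgs9 holds 35.6 and 38% and the 2807 nt transcript of Pde1b 20.4 and 19.3%, above all other libraries.

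Of 79 further genes of the pathway, 77 were in the files and 75 were tested; Drd4 (0.0908 TPM) and the dopamine transporter gene Slc6a3 (0.147 TPM), which is made by dopamine neurons rather than in striatum, were below the filter. Drd5, the other D1-like receptor, was at 1.70 ± 0.483 TPM (SD, n = 12). The general stimulatory subunit Gnas was at 711 ± 96.0 TPM, above Gnal, and the adenosine receptor gene Adora2a at 201 ± 44.7 TPM. Among the cyclases, Adcy5 was above Adcy3 (24.4 ± 7.50 TPM), Adcy2 (23.3 ± 4.95), Adcy1 (19.6 ± 8.43), Adcy9 (9.65 ± 4.86), Adcy6 (3.79 ± 1.10) and Adcy8 (2.31 ± 0.943). Among the phosphodiesterases, the next after Pde1b and Pde10a were Pde4b (69.1 ± 15.3 TPM), Pde7b (57.8 ± 26.6) and Pde8b (52.1 ± 16.0). The peptide genes of the indirect and direct pathways, Penk and Tac1, were at 2520 ± 483 and 445 ± 51.1 TPM.

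None of the 75 was called in any of the 8 comparisons by edgeR, which called 0.00627% of all genes or fewer in each. Their calls in the other fits were not counted. By genotype in controls 54 were above 0 and 21 below (median 0.06), by stress in wild type 53 and 22 (median 0.08), and for both factors against neither 54 and 21 (median 0.09). By genotype in stressed mice the split was 38 and 37 (median 0.00), by stress in hets 41 and 34 (median 0.02), and for the interaction 24 and 51 (median -0.06). The calcium-stimulated cyclase gene Adcy8 was the single gene of the list with an edgeR unadjusted p under 0.05. It had one by genotype in controls, by stress in wild type and for the interaction, as did 1.47%, 2.49% and 1.33% of all genes. These comparisons share their wild-type control mice, so the values of Adcy8 are not independent. Adcy8 was at -0.72 ± 0.25 (SE), -0.63 ± 0.25 and 0.98 ± 0.35 in this order, with edgeR adjusted p-values of 0.99999, 0.99992 and 0.99997. On the other side, the smallest p-values were for Adora2a by genotype in controls (0.28 ± 0.17, edgeR adjusted p = 0.99999), Gnaz, an inhibitory alpha subunit, by stress in wild type (0.23 ± 0.12, 0.99992) and the substance P precursor gene Tac1 for the interaction (-0.49 ± 0.30, 0.99997). Tac1 was at -0.37 ± 0.21 and Gng2 at 0.53 ± 0.28 by stress in hets (edgeR adjusted p = 0.99995 for each). By genotype in stressed mice Fos was at 0.53 ± 0.41 and Adcy6 at -0.24 ± 0.16 (edgeR adjusted p = 0.99992 for each). Of the 8 groups within the list, by genotype in controls (50.7% of all genes above 0) 2 of 6 adenylyl cyclases were above 0 (median -0.13), 4 of 8 subunits and anchors of protein kinase A (-0.02), 5 of 8 phosphodiesterases (0.09) and 5 of 7 dopamine receptor and handling genes (0.05). Also above 0 were 14 of 19 G proteins and regulators (0.05), 13 of 15 phosphatases and DARPP-32 relatives (0.10), 4 of 5 other receptors of spiny neurons (0.26) and 7 of 7 CREB factors and transcriptional targets (0.20). By stress in wild type (48.8% of all genes above 0) the counts above 0 were 5 of 6 cyclases (0.09), 6 of 8 kinase genes (0.09), 8 of 8 phosphodiesterases (0.18) and 2 of 7 dopamine receptor and handling genes (-0.03). They were 15 of 19 for G proteins and regulators (0.07), 7 of 15 for phosphatases and relatives (-0.02), 5 of 5 for the other receptors (0.15) and 5 of 7 for CREB factors and targets (0.09). None of these genes was called by edgeR.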

How the data were processed

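RNA was extracted from 12 striatal punches, and about 100 ng went into random-primed NuGen libraries, per the labels' protocols. Per the submitters' processing notes, RSEM and Bowtie assigned the reads, with mm9 (NCBIM37) as reference and no version named for RNA. The deposited files give an expected count, TPM and FPKM per gene and per transcript, made by the authors with 1 file per library, per the file headers. Strand use is not stated. Identifiers were matched to symbols for 87.4% of 37289 genes.

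After rounding of the expected counts and filterByExpr, edgeR 4.0.16 in R 4.3.3 was used with TMM scaling and its robust quasi-likelihood fit (glmQLFit, glmQLFTest), with 4 group means over 12 libraries and 8 contrasts. P-values were adjusted by Benjamini-Hochberg over the 15955 genes tested and called at 0.05, two-sided. The log2 CPM used a prior count of 2, and intervals are t-based. Alternatives used DESeq2 1.42.0, limma 3.58.1 and others named in the closing section. The fit was also run on simulated counts without a length slope, so that run did not check it under such a slope. No libraries of a group were alike within sampling noise (chi-square of 9.22 or more per gene). Ratios and transcript shares (genes with a second transcript at 10% or more) were compared by exact permutation. The 3 members with the smallest p in a contrast, and the pathway gene with the smallest p in each direction, are named; Adcy1, Adcy2, Adcy3, Adcy9, Drd5, Gnas, Penk and 3 phosphodiesterases are named for their levels. Members and lists were chosen with earlier results of these data known. Promoters were matched by symbol; the 5hmC tables, in mm9 regions, were not used here.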

Additional observations from a re-analysis of the deposited data

Results flagged for a closer look

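For each gene or leading share, groups were formed by genotype and by prenatal condition. Of the 64 groups of 6 libraries examined, 6 held a library flagged by Dixon's 95% critical value. Flagged means that its gap to its nearest neighbour, relative to the group's range, was above that value. For independent groups chance gives about 1 in 20. These groups share libraries and genes that moved together, so the count cannot be set against that rate. In het mice the lowest library, control replicate 1, was apart for Gnal (log2 CPM 8.09, next 9.0), Pde10a (9.01, next 9.87) and Gng7 (9.58, next 10.36). In stressed mice Gng7 was lowest in wild-type replicate 1 (log2 CPM 10.2, next 10.36). In wild-type mice control replicate 1 was apart for the leading transcript share of Pde10a (74.85%, next 51.35%) and of Rgs9 (54.75%, next 77.61%).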

How the results depend on the processing

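No member was called in any of the 8 contrasts by edgeR, by edgeR with RLE size factors, without a filter, on the groups of a contrast only, with the length slope as a covariate or without any 1 library, nor by DESeq2 or limma-trend; limma-voom with sample weights called 6 in the genotype contrast in controls and none in the others. Over all genes voom called 983 there (edgeR 1), 43 for stress in wild type (DESeq2 12, edgeR 0), 49 for both factors against neither, 14 for stress in hets, 10 and 6 for the averages by genotype and stress, and 3 by genotype in stressed mice. DESeq2 called 2, 3, 2, 2 and 3 for genotype in controls, genotype in stressed mice, both against neither and the 2 averages. With the slope as a covariate the genotype average had 4 (without a filter 2), and limma-trend gave 3 there and 2 in each of genotype in controls, genotype in stressed mice and both against neither. Leaving out 1 library gave 0 to 2 calls in these contrasts.

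The main fit did not pair the mice by replicate number. Of 18 pairs with the same number 9 had correlated deviations over 0.1 (-0.256 to 0.674), and 8 of 12 libraries were nearest their own number. These values do not settle whether mice of the same number belong together. With a replicate block 0 members were called, and the medians by genotype in stressed mice and by stress in hets were both 0.03.

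Signs turned as follows. With the slope as a covariate the stress average was -0.01 for Gnal and -0.04 for Drd2; without both control replicates 1 it was -0.03 for Gng7, -0.12 for Gnal and -0.16 for Drd2; with voom it was -0.06, -0.10 and -0.14. Ppp1r1b by genotype in stressed mice was 0.01 with voom and 0.08 with limma-trend on TPM. That last fit also gave 0.20 for Ppp1r1b and for Drd1 by stress in hets and 0.07 and 0.04 for their interactions. Without both control replicates 1 (added after seeing the data) the stress difference was 0.18 for the Drd1 to Drd2 ratio and -1.57 points for the Ppp1r1b share. The cause was not tested in any of these. Without 1 library, the Drd1 to Drd2 log2 ratio ranged from -0.10 to 0.15 by genotype and -0.20 to 0.02 by stress, and the leading shares by genotype from -0.92 to 2.37 (Ppp1r1b), -6.56 to 0.44 (Rgs9) and -1.54 to 0.45 points (Drd2). Fold changes ranged from -0.07 to 0.20 for Drd2 and -0.04 to 0.31 for Gnal (stress average), -0.18 to 0.04 for Drd1, -0.32 to 0.00 for Ppp1r1b and -0.93 to 0.17 for Drd3 (stress in hets), -0.90 to 0.02 for Drd3 and -0.01 to 0.14 for Pde1b (genotype in stressed mice), and -0.01 to 0.69 for Adcy5 (stress in wild type).

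The biological coefficient of variation was 0.256 with 3 mice a group. Depth limits Drd3, at 7 to 36 counts a library, while the other 9 genes had 2439 or more.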
